A study of Mus musculus with 24 samples.

Results

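The EGF (epidermal growth factor) system was followed through 10 genes on 24 microarrays of mouse embryonic fibroblasts (MEFs). They were 6 ligand genes (Areg, Ereg, Hbegf, Tgfa, Btc and Nrg1), 3 receptor genes (Egfr, Erbb2 and Erbb3) and Errfi1, which encodes an inhibitor that binds ERBB receptors. Probes were found by gene name or older synonym on the array, which gave 27 probes of 41174 and 10 of 18434 protein-coding genes. The genes were chosen by their measured log2 differences between treated and untreated cells in these data, so those differences are given as a description, without a test. Each value is the log2 of the background-corrected intensity relative to the 75th percentile of its array, and each gene is represented by its brightest probe.

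All cells were Ku70-/- MEFs, a line deficient in nonhomologous end joining, and no Ku70-proficient cells were included. In the first set of 15 arrays, 3 arrays each came from untreated cells, from cells given 20 mM potassium bromate (KBrO3, an oxidizing agent) for 1 hr and collected 4 or 24 hr after its addition, and from cells co-exposed to KBrO3 and 150 μM bisphenol A (BPA), a plastics monomer with estrogenic activity. Co-exposed cells had BPA for 1 hr before KBrO3, during it and throughout the 3 or 23 hr of recovery. In the second set of 9 arrays, 3 each came from untreated cells and from cells labelled as given 150 μM BPA alone for 4 or 24 hr, counted from the time of the parallel KBrO3 addition, with BPA present for 1 hr more. The untreated cells of the first set carry the 4-hr label and served both times, and those of the second set carry no time. Both sets were scanned and extracted separately, so each treatment was compared only with its own set. The study's methods describe the replicates as biological, the labels name no separate cultures, and the p-values measure the spread between these samples.

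EGF-family ligands are made as membrane proteins and released by metalloproteases of the ADAM family. The released ligands bind EGFR and the related ERBB receptors, which pair and signal through RAS and the kinases RAF, MEK and ERK. ERK activity in turn raises transcripts of several ligands, which amplifies the signal, and of inhibitors such as Errfi1 (also called Mig6), the Sprouty proteins and Dusp6, which dampen it. In fibroblasts this circuit is best known for the growth response to serum and for the response to stress.

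The promoters of Areg and Errfi1 are shown because these genes were high together at 4 hr and because both hold the full cyclic AMP response element (CRE), TGACGTCA, here in capitals. The sequences are the 250 bases before the RefSeq start on build GRCm38.p6, 5′ to 3′ on the plus strand.
Areg, chr5:91139349-91139598: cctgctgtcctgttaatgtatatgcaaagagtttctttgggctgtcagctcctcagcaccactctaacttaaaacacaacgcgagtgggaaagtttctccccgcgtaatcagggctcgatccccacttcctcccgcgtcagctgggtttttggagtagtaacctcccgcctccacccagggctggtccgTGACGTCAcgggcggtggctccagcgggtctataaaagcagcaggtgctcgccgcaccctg
Errfi1, chr4:150854820-150855069: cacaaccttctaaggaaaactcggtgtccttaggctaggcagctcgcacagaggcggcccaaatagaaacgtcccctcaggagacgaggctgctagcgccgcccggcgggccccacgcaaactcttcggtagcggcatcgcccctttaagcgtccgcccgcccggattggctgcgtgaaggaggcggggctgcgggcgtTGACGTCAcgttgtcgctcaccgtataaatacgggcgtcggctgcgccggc
The CRE began 61 bases before the start of Areg and 51 bases before that of Errfi1, and a TATAAA followed at 31 and 28 bases before the start. On both strands of the 32851 RefSeq promoter windows of 300 bases, 1.79% held TGACGTCA and 13.6% held TATAAA. Neither promoter held TGANTCA (the AP-1 site, in 7.81% of windows) or TGACNNNGC (an antioxidant response element core, in 12.4%), and the matches did not overlap each other. The promoters of Btc, Egfr, Erbb2 and Tgfa, and another Errfi1 start, further upstream, held none of these 4 motifs. No promoter entry was matched for Ereg, Hbegf, Nrg1 or Erbb3. A match is only a run of letters and does not show that a factor binds there.

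**Figure D1:**
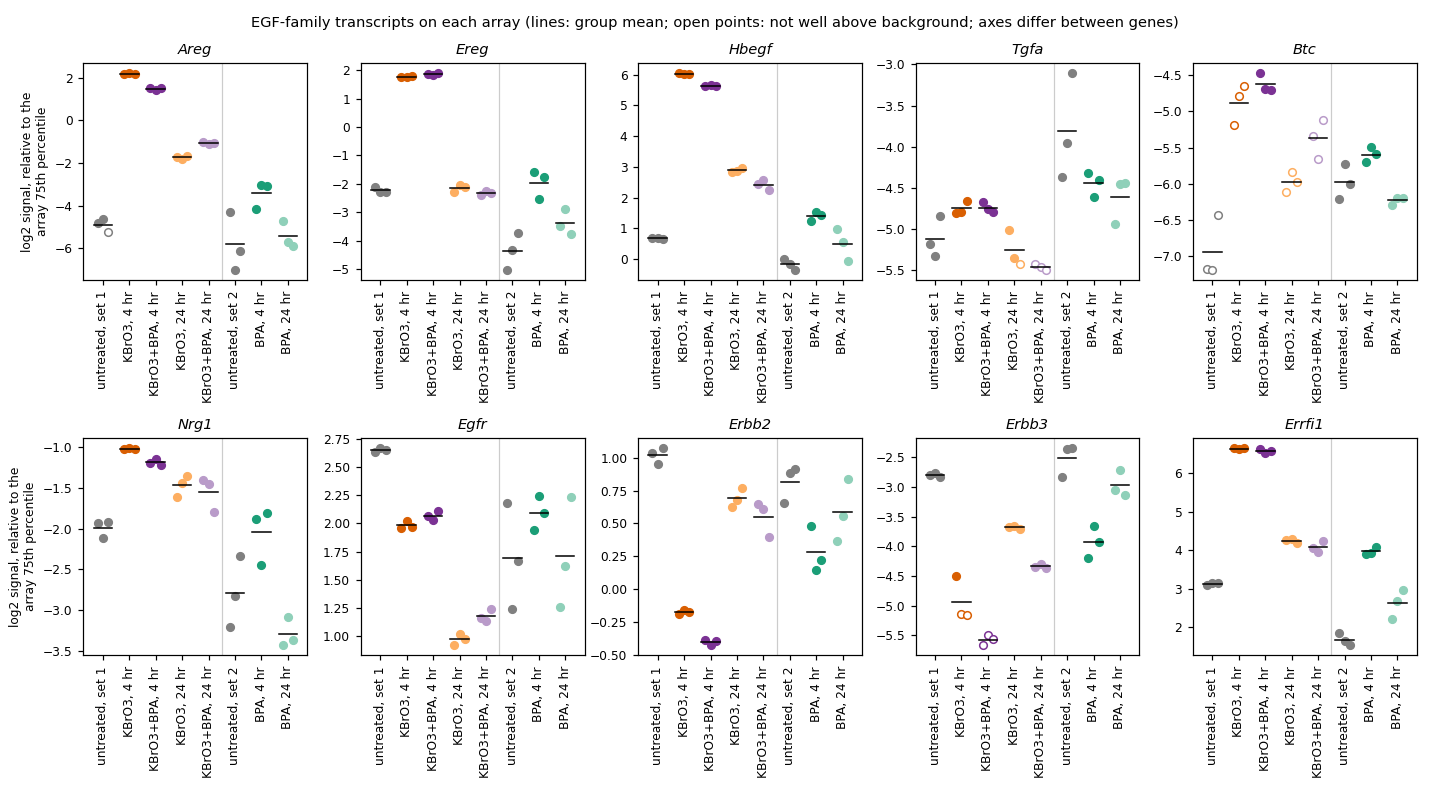
Log2 signal relative to the array 75th percentile for the brightest probe of each gene on all 24 arrays, with 3 arrays in each group, lines at the group means and open points where the probe was not well above background. Areg, Ereg, Hbegf and Errfi1 sit highest 4 hr after KBrO3, with or without BPA, while Erbb2 and Erbb3 sit lowest there.

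Areg encodes amphiregulin, a ligand of EGFR. Its probe, shown because the largest differences rest on it, lies at chr5:91129331-91129390 on build mm7, as given by the scanner files.
Areg probe: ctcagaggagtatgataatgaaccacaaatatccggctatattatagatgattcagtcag
The untreated arrays read -4.82, -4.63 and -5.22, the last of them not well above background. At 4 hr after KBrO3 alone the values were 2.18, 2.22 and 2.17, and after co-exposure they were 1.51, 1.42 and 1.49. At 24 hr they were -1.73, -1.82 and -1.67 after KBrO3 alone and -1.03, -1.12 and -1.06 after co-exposure. Every treated array was above every untreated one, and no 2 of the 5 groups overlapped. Areg was 7.08 ± 0.11 (SE) higher than untreated at 4 hr after KBrO3 alone and 6.37 ± 0.11 higher after co-exposure, or 135-fold and 82.4-fold. At 24 hr the differences were 3.15 ± 0.11 and 3.82 ± 0.11. These sizes depend on the background correction. With normexp, a correction fitted to mean and local background signal, they were 5.43 and 4.74 at 4 hr and 1.75 and 2.39 at 24 hr. In RNA from whole cultures, fewer cells of a type and less RNA per cell cannot be told apart, here and in the values that follow.

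Hbegf encodes heparin-binding EGF-like growth factor. The untreated arrays lay between 0.64 and 0.69, the 4-hr KBrO3 arrays between 6.01 and 6.06, and the 4-hr co-exposed arrays between 5.62 and 5.67. At 24 hr KBrO3 alone gave 2.85, 2.88 and 2.95, and co-exposure gave 2.45, 2.57 and 2.23. The 5 groups did not overlap. The log2 differences from untreated were 5.37 ± 0.07 and 4.98 ± 0.07 at 4 hr, and 2.22 ± 0.07 and 1.75 ± 0.07 at 24 hr, for KBrO3 alone and co-exposure respectively.

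Ereg encodes epiregulin, which binds EGFR and ERBB4. The untreated arrays read -2.11, -2.30 and -2.30, the 4-hr KBrO3 arrays 1.75, 1.76 and 1.81, and the 4-hr co-exposed arrays 1.85, 1.85 and 1.90. Unlike Areg and Hbegf, Ereg overlapped its untreated level again at 24 hr, at -2.28, -2.04 and -2.12 after KBrO3 alone and -2.39, -2.26 and -2.34 after co-exposure. The difference from untreated was 4.01 ± 0.07 at 4 hr and 0.09 ± 0.07 at 24 hr after KBrO3 alone. The other probe annotated to Ereg, designed on a cDNA, gave 0.84 and 1.53 at these times. The pair of probes spans 40.8 kb on build mm7, whereas the RefSeq gene is 19.0 kb long, so whether they report the same transcript was not tested.

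The remaining ligands differed less or were dim. Nrg1, which encodes neuregulin 1, a ligand of ERBB3 and ERBB4, was 0.97 ± 0.10 higher at 4 hr after KBrO3 alone and 0.52 ± 0.10 higher at 24 hr. Its other 4 probes gave 0.21 to 1.54 at 4 hr, and after co-exposure at 4 hr they gave -0.52 to 1.48, so its probes disagree in direction there. At 24 hr after KBrO3 alone its probes also disagreed in direction, since another probe was lower than untreated. On its brightest probe Tgfa, which encodes transforming growth factor alpha, differed from untreated by -0.34 to 0.37 in the 4 comparisons of the first set. Its other probe went beyond this range. Btc, which encodes betacellulin, was well above background only on the 3 co-exposed arrays at 4 hr among the 15 arrays. There the log2 difference was 2.32 on the values as measured and 0.48 with normexp, so its size is not settled.

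Errfi1 was high on the same arrays as Areg and Hbegf. The untreated arrays read 3.09, 3.16 and 3.14, the 4-hr KBrO3 arrays 6.66, 6.62 and 6.65, and the 4-hr co-exposed arrays 6.63, 6.53 and 6.59. At 24 hr the values were 4.27, 4.28 and 4.18 after KBrO3 alone and 4.06, 3.96 and 4.23 after co-exposure. All treated arrays were above the untreated ones, and the KBrO3 and co-exposed arrays overlapped at both times. The differences from untreated were 3.51 ± 0.06 and 3.45 ± 0.06 at 4 hr, and 1.11 ± 0.06 and 0.95 ± 0.06 at 24 hr.

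The receptor genes were lower in the treated cells of the first set. Egfr, the receptor for Areg, Ereg, Hbegf, Tgfa and Btc, read 2.63, 2.67 and 2.65 in untreated cells, 1.95, 2.02 and 1.97 at 4 hr after KBrO3 and 0.92, 1.02 and 0.97 at 24 hr. Co-exposed cells read 2.07, 2.03 and 2.11 at 4 hr and 1.16, 1.13 and 1.24 at 24 hr. Egfr was thus lowest at 24 hr, when it was 1.68 ± 0.04 lower than untreated after KBrO3 alone and 1.48 ± 0.04 lower after co-exposure. The other 4 Egfr probes bright enough to test gave -1.19 to -2.55 at 24 hr after KBrO3 alone, while at 4 hr they gave -0.12 to -1.57.

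Erbb2, which encodes the receptor that has no ligand of its own and pairs with the others, was lowest at 4 hr. Its untreated arrays read 1.04, 0.95 and 1.07, against -0.19, -0.16 and -0.17 at 4 hr after KBrO3 and -0.39, -0.43 and -0.39 after co-exposure. At 24 hr it read 0.62, 0.68 and 0.77 after KBrO3 alone and 0.64, 0.61 and 0.39 after co-exposure, still below every untreated array. The other Erbb2 probe gave -1.07 at 4 hr and 0.01 at 24 hr after KBrO3 alone.

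Erbb3, which encodes a receptor for neuregulins, read -2.80, -2.77 and -2.84 in untreated cells on its brightest probe, -4.50, -5.14 and -5.16 at 4 hr after KBrO3 alone and -3.68, -3.66 and -3.70 at 24 hr. Only the first of the 4-hr arrays was well above background. The treated arrays lay below every untreated one, by -2.13 ± 0.13 at 4 hr, a size that rests on values at background, and by -0.88 ± 0.13 at 24 hr. In co-exposed cells at 4 hr no array was well above background. With those arrays set at the lowest signal well above background of any probe, Erbb3 was 6.25-fold below untreated. This is not a bound, since the Erbb3 probe was not well above background at -5.14 on a 4-hr KBrO3 array. At 24 hr after co-exposure Erbb3 was at -1.54 ± 0.13. With normexp the differences were -0.97 at 4 hr after KBrO3 alone, and -1.35 and -0.95 at 4 and 24 hr after co-exposure. That probe was designed on a predicted transcript and lies 2.53 kb from the nearest of the other 4 probes, none of which was bright enough to test in the first set. The Erbb3 values of the first set are therefore those of 1 probe that the others could not check.

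**Figure D2:**
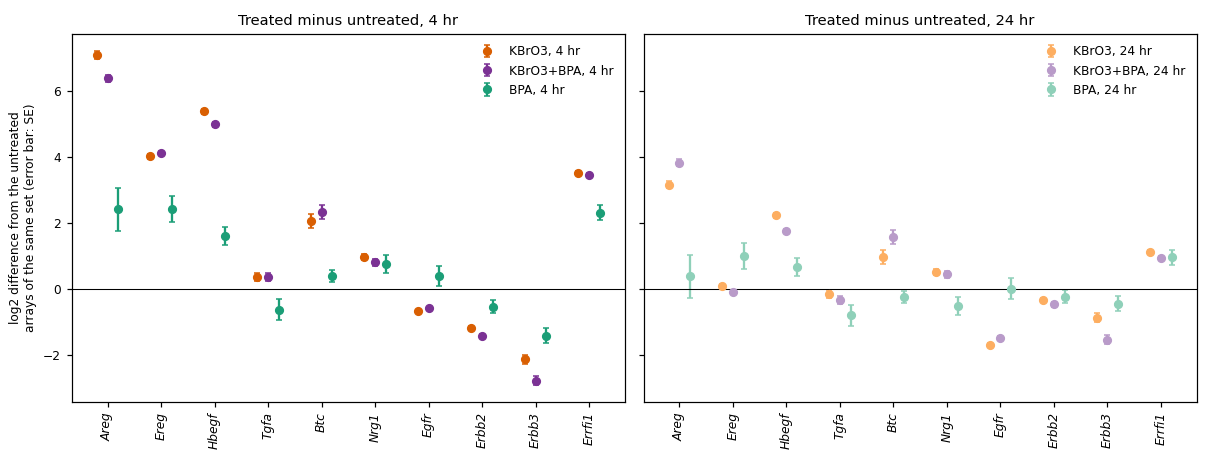
Log2 difference of each treatment from the untreated arrays of its own set at 4 hr (left) and 24 hr (right), with SE from the fit over all groups of a set and 3 arrays in each group. At 4 hr Areg reaches 7.08 after KBrO3 alone and Erbb2 lies at -1.42 after co-exposure, and Egfr is lower at 24 hr than at 4 hr.

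A gene was counted as apart from untreated when all 3 treated arrays lay above, or all below, the 3 untreated ones and the fold was beyond 1.5. After KBrO3 alone at 4 hr, 6 of the 10 genes were higher and 3 lower by this count, where 22.2% of 14100 genes were higher and 22.9% lower. The 6 include Btc, which was not well above background in either group. At 24 hr 4 were higher (Areg, Hbegf, Btc and Errfi1) and 2 lower (Egfr and Erbb3), with 12.7% and 20.7% over all genes. Btc was again not well above background in either group, and with normexp its sign turned (-0.20). Co-exposure gave 6 higher and 2 lower at 4 hr (29.1% and 26.6% over all genes) and 4 higher and 2 lower at 24 hr (15.8% and 24.5%). Both counts of higher genes include Btc, tested in the first set only through the 4-hr co-exposed arrays. At 24 hr after co-exposure Btc was not well above background in either group, and its lowest value among the alternatives was 0.20. The median of the 10 log2 differences was 1.51 and 1.56 at 4 hr for KBrO3 alone and co-exposure, beside 0.02 and 0.01 over all genes, and 0.30 and 0.17 at 24 hr, beside -0.07 and -0.06. These counts describe the choice of genes and nothing is read from them.

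**Figure D3:**
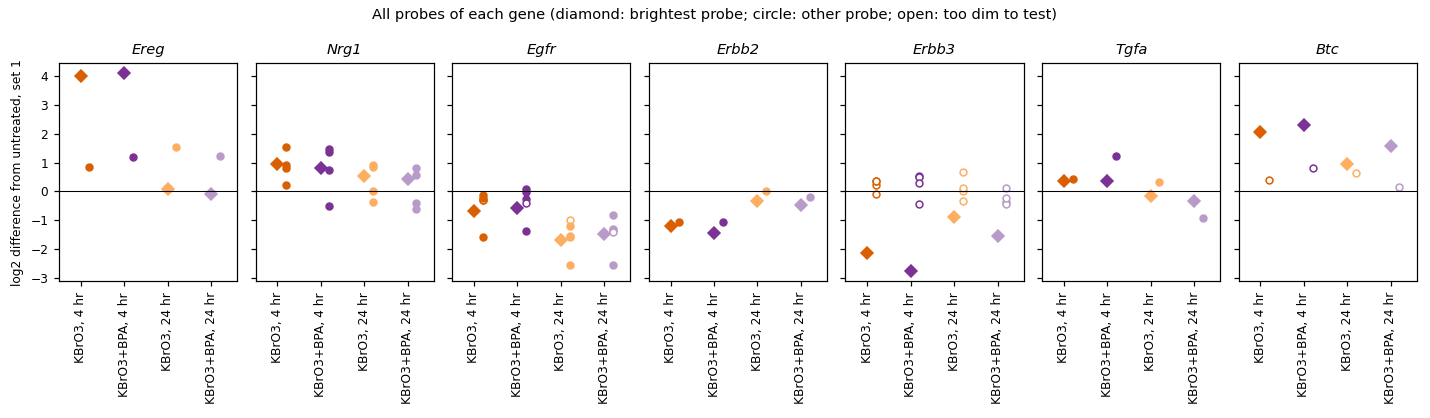
Log2 difference from untreated in the first set for every probe of the 7 genes with more than 1 probe, with diamonds for the brightest probe, circles for the others and open symbols for probes too dim to test. All 6 Egfr probes lie below 0 at 24 hr, while the 5 Nrg1 probes lie on both sides of 0 after co-exposure at 4 hr.

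BPA alone was measured in the second set, whose replicates were more variable, with a median residual SD of 0.318 against 0.106 in the first set over 27180 shared probes. At 4 hr Errfi1 read 3.91, 3.92 and 4.09 against 1.85, 1.64 and 1.52 in untreated cells. Hbegf read 1.24, 1.54 and 1.44 against 0.01, -0.18 and -0.37, and Ereg read -1.59, -2.53 and -1.75 against -5.05, -4.34 and -3.75. Areg read -4.16, -3.02 and -3.07, and its untreated arrays were widely spread, at -4.31, -7.04 and -6.13. In all 4 genes the BPA arrays lay above the untreated ones, by 2.30 ± 0.22 for Errfi1, 1.59 ± 0.27 for Hbegf, 2.42 ± 0.39 for Ereg and 2.40 ± 0.65 for Areg. The other Ereg probe, well above background on these arrays, gave 0.17 ± 0.27, and its BPA and untreated arrays overlapped.

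On the slide that held 2 BPA arrays and 1 untreated array, the differences were 0.69 for Areg, 1.33 for Hbegf, 2.15 for Errfi1 and 3.38 for Ereg. Erbb3 was lower, at -1.41 ± 0.23 (-0.94 with normexp), and Egfr was not apart, at 0.40 ± 0.31. The 3 other Erbb3 probes bright enough to test in the second set gave -0.57, -0.36 and -0.54, all below 1.5-fold. For the first and the last of these the 3 BPA arrays lay below the 3 untreated ones, and only the first was well above background on all 6 arrays. By the same count as above, 4 of 10 genes were higher and 1 lower at 4 hr, with 7.72% and 8.15% of 15742 genes. At 24 hr 1 gene was higher, Errfi1 at 0.95 ± 0.22, and 1 lower, Tgfa at -0.80 ± 0.31, with 7.03% and 7.17% over all genes. Without the third untreated array Tgfa was at -0.45, below 1.5-fold, as with normexp (-0.44), and its other probe gave -0.55 with overlapping arrays. Without the first untreated array, the count was 6 of the 10 genes in place of 2. Areg was at 0.38 ± 0.65 and Egfr at 0.01 ± 0.31 at 24 hr. On the 2 slides that held 1 array of each group, the differences were 2.30 and 0.42 for Areg, 0.58 and 1.16 for Errfi1, and -0.98 and -1.35 for Tgfa.

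Whether BPA changed the response to KBrO3 was tested by comparing co-exposed cells with KBrO3 alone, in limma with Benjamini-Hochberg adjustment over all probes tested, a gene passing at an adjusted p below 0.05 and a fold beyond 1.5. The arrays are those whose differences from untreated chose the genes, so for the 10 genes these p-values are not independent of that choice. At 4 hr Areg was lower with BPA, by -0.71 ± 0.11 (adjusted p = 0.00022, lower in 3 of 3 arrays), and at 24 hr it was higher, by 0.67 ± 0.11 (adjusted p = 0.00042, higher in 3 of 3 arrays). The change of this difference from 4 to 24 hr, tested itself, was 1.38 ± 0.16 (adjusted p = 3.1e-05). With Bonferroni adjustment its p was 0.057, so it did not pass the stricter limit of a Bonferroni p below 0.01, nor did either difference in Areg. Areg thus fell less far between the times in co-exposed cells. On the brightest probe of each gene it was the 1 gene of the 10 whose change passed, upward, where 13.2% of all genes passed upward and 13.4% downward. Dimmer probes of 3 other genes also passed, with a change of -0.64 on the other Ereg probe, -2.05 on the other Tgfa probe (at background on 5 of the 6 arrays at 24 hr), and 1.29, -1.17 and -0.90 on 3 of the other 4 Nrg1 probes.

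All 4-hr KBrO3 arrays were on 1 slide and all 4-hr co-exposed arrays on another, so slide and treatment cannot be told apart at 4 hr, nor in the change of the difference between the times. The untreated and the 4-hr KBrO3 arrays were on 2 slides that held no other group, so slide cannot be told apart from the other treated groups against untreated, or from 24 against 4 hr after KBrO3 alone. With slide as a random block, Areg differed by -0.89 at 4 hr (adjusted p = 0.0011). At 24 hr 2 arrays of each group shared a slide, and within it Areg differed by 0.67.

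Hbegf was lower with BPA at both times, by -0.39 ± 0.07 and then -0.48 ± 0.07 (adjusted p = 0.00048 and 0.00013), with no overlap of arrays but a fold below 1.5, so it did not pass. Its difference did not pass for a change between the times (-0.09 ± 0.10, adjusted p = 0.48). Errfi1 differed by -0.06 ± 0.06 and -0.16 ± 0.06 and Egfr by 0.09 ± 0.04 and 0.21 ± 0.04, all below 1.5-fold. Ereg differed by 0.09 ± 0.07 and -0.18 ± 0.07.

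Erbb3 fell below KBrO3 alone by -0.64 ± 0.13 and then -0.66 ± 0.13 (adjusted p = 0.0017 and 0.0016). At 4 hr it was well above background on 1 KBrO3 array and on no co-exposed array, so the size of that difference rests on values at background, and with slide as a random block it did not pass (adjusted p = 0.080). Without the first 4-hr KBrO3 array its difference was -0.42, and with normexp background correction -0.38, both below 1.5-fold. The 24-hr difference did not pass with array medians (-0.49), quantile normalization (-0.45, adjusted p = 0.051) or normexp (-0.22, adjusted p = 0.054). Btc passed at 24 hr (0.60 ± 0.21, adjusted p = 0.033) although it was not well above background in either group. With slide as a random or a fixed block it was 0.50 and 0.41, below 1.5-fold, and it did not pass without replicate 1 or 3 of KBrO3 alone, or replicate 1 or 3 of co-exposure, at that time (0.48 to 0.60). In all, none of the 10 genes was higher and 2 were lower at 4 hr, with 10.6% and 9.06% over all genes, and 2 were higher and 1 lower at 24 hr, with 6.55% and 7.59%. These counts are of the brightest probes. Among the other probes, 1 of Nrg1 passed lower at 4 hr (-1.31 ± 0.08, adjusted p = 1.4e-07) and another at 24 hr (-0.65 ± 0.14, adjusted p = 0.0025).

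**Figure D4:**
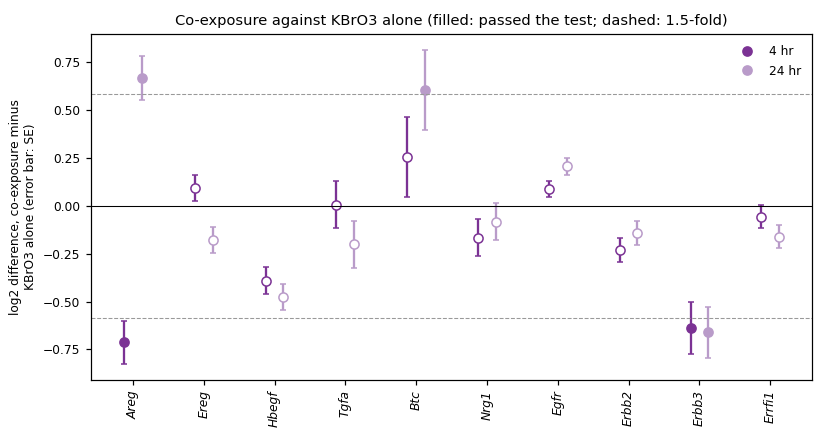
Log2 difference of co-exposed cells from cells given KBrO3 alone at 4 and 24 hr for each gene, with SE, 3 arrays in each group, filled points where the test passed and dashed lines at 1.5-fold. Areg lies at -0.71 at 4 hr and 0.67 at 24 hr, and no other gene passed in opposite directions.

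The change from 4 to 24 hr within each treatment uses the same arrays that chose the genes, so it is given as a description, and no p is printed here. The counts by the adjusted p and fold limits only set these genes beside all genes and are not tests of them. After KBrO3 alone, the brightest Ereg probe was lower at 24 than at 4 hr by 3.92 ± 0.07, Areg by 3.93 ± 0.11, Hbegf by 3.14 ± 0.07 and Errfi1 by 2.40 ± 0.06. The other Ereg probe went the opposite way, with 0.69 ± 0.08. Egfr was lower still at 24 hr, by 1.01 ± 0.04, while Erbb2 was higher by 0.86 ± 0.06 and Erbb3 by 1.26 ± 0.13. The Erbb3 probe was well above background on 1 of the 3 arrays at 4 hr, and with normexp its difference was 0.23, below 1.5-fold. By the adjusted p and fold limits given above, 2 genes were higher and 6 lower, where 19.2% and 28.6% of all genes were, and the 6 include Btc, which was not well above background in either group.

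After co-exposure, 2 were higher and 7 lower, with 23.4% and 34.1% over all genes. Areg was lower by 2.55 ± 0.11, Ereg was 18.3-fold lower on its brightest probe and at 0.05 ± 0.08 on the other, and Hbegf was lower by 3.23 ± 0.07. Egfr was lower by 0.89 ± 0.04, but by 0.43, below 1.5-fold, with arrays scaled to their medians. Tgfa and Btc, at -0.72 and -0.75, are among the 7 and were not well above background at 24 hr. Both were below 1.5-fold with array medians (-0.26 and -0.29), normexp (-0.28 for both) and quantile normalization (0.023 and -0.025), as was Tgfa with slide as a random or a fixed block (-0.48 and -0.32). Erbb3 was higher at 24 hr after co-exposure by 0.39 with normexp, also below 1.5-fold. After BPA alone, Errfi1 was lower at 24 hr by 1.35 ± 0.22 and Nrg1 by 1.25 ± 0.27, and these 2 of the 10 were past the same limits, with 3.06% of all genes lower and 1.25% higher. Errfi1 was not past them without the second or the third 4-hr BPA array, and Nrg1 in 7 of 9 fits that left out 1 array.

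The further gene lists described from here on were chosen with earlier results of these data known, so their p-values are not independent of that choice. Of 4 other family genes bright enough to test, 1 rose and 1 fell at 4 hr after KBrO3 alone, with 21.1% and 22.8% over all genes, and 2 rose and 1 fell after co-exposure, with 28.1% and 26.5%. Epgn, which encodes epigen, rose at 4 hr after KBrO3 alone (1.40 ± 0.14, adjusted p = 1.8e-06) and after co-exposure (1.51 ± 0.14, adjusted p = 7.7e-07), and was at 0.17 ± 0.14 and 0.02 ± 0.14 at 24 hr. Egf itself fell at 4 hr, by -1.06 ± 0.13 after KBrO3 alone and by -0.61 ± 0.13 after co-exposure. Erbb4, which encodes the fourth receptor, was at 0.15 ± 0.10 and 0.03 ± 0.10 at 4 hr. Nrg4 rose after co-exposure at 4 hr (1.55 ± 0.49, adjusted p = 0.012), also against KBrO3 alone (1.43 ± 0.49, adjusted p = 0.025). Nrg3 was too dim to test, and Nrg2 was not matched to a probe.

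Of 13 transcripts tested that are known to follow ERK activity, 9 rose and 2 fell at 4 hr after KBrO3 alone, with a median of 2.10, where 21.1% and 22.8% of all genes rose and fell and the median was 0.02. Fosl1, an AP-1 subunit, rose by 4.46 ± 0.06, Phlda1 rose by 4.46 ± 0.04 and Dusp4, an ERK phosphatase, rose by 4.44 ± 0.09. After co-exposure 9 rose and 3 fell at 4 hr, with 28.1% and 26.5% over all genes. After KBrO3 alone Etv1, an ETS factor, fell by 1.95 at 4 hr and 1.53 at 24 hr. At 24 hr 5 rose and 1 fell after KBrO3 alone (12.7% and 21% over all genes) and 8 rose and 2 fell after co-exposure (15.7% and 23.9%). After BPA alone at 4 hr, 7 of the 13 rose and none fell, with 3.01% and 1.67% over all genes, led by Ier3 (2.46 ± 0.23, adjusted p = 0.0010), Phlda1 (2.21 ± 0.39, adjusted p = 0.016) and Junb (1.88 ± 0.24, adjusted p = 0.0040). At 24 hr after BPA alone 3 rose, Fosl1 (1.59 ± 0.33), Myc (1.43 ± 0.23) and Ier3 (1.03 ± 0.23), and none fell, with 1.83% and 2.48% over all genes.

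Of 13 other feedback inhibitors bright enough to test, 5 rose and 1 fell at 4 hr after KBrO3 alone, with 21.1% and 22.8% over all genes. Dusp6, an ERK phosphatase, rose by 2.91 ± 0.10, and the Sprouty genes Spry4 and Spry2 rose by 2.60 ± 0.18 and 1.55 ± 0.07. At 24 hr none rose and 5 fell (12.7% and 21% over all genes), with Spry4 at -1.94 ± 0.18 and Spry1 at -1.59 ± 0.06. Against KBrO3 alone, Spry4 was lower in co-exposed cells at 4 hr (-1.31 ± 0.18, adjusted p = 7.7e-05) and higher at 24 hr (0.76 ± 0.18, adjusted p = 0.0044), with a tested change of 2.07 ± 0.25 (adjusted p = 5.0e-05). Dusp6 was at -0.20 at 4 hr and higher at 24 hr (0.80 ± 0.10, adjusted p = 2.8e-05), with a tested change of 0.99 ± 0.13 (adjusted p = 0.00010). Over the 13 inhibitors this change passed upward in 3 and downward in 3 (13.2% and 13.4% over all genes). The downward ones, named after their values were seen, were Lrig1 (-0.84 ± 0.11), Socs4 (-0.81 ± 0.21) and Socs5 (-0.78 ± 0.15). Against KBrO3 alone, none of the 13 was higher and 1 lower at 4 hr (10.6% and 9.06%), and 2 were higher and 1 lower, Lrig1, at 24 hr (6.55% and 7.59%). Ier3, which is on the list of 13 transcripts that follow ERK activity, was higher by 0.65 ± 0.04 at 24 hr (adjusted p = 1.6e-07). On that list it was the 1 transcript that passed at 24 hr, and none passed at 4 hr, beside the same shares over all genes. The change between the times passed upward in 4 of those 13 and downward in none (13.2% and 13.4% over all genes).

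**Figure D5:**
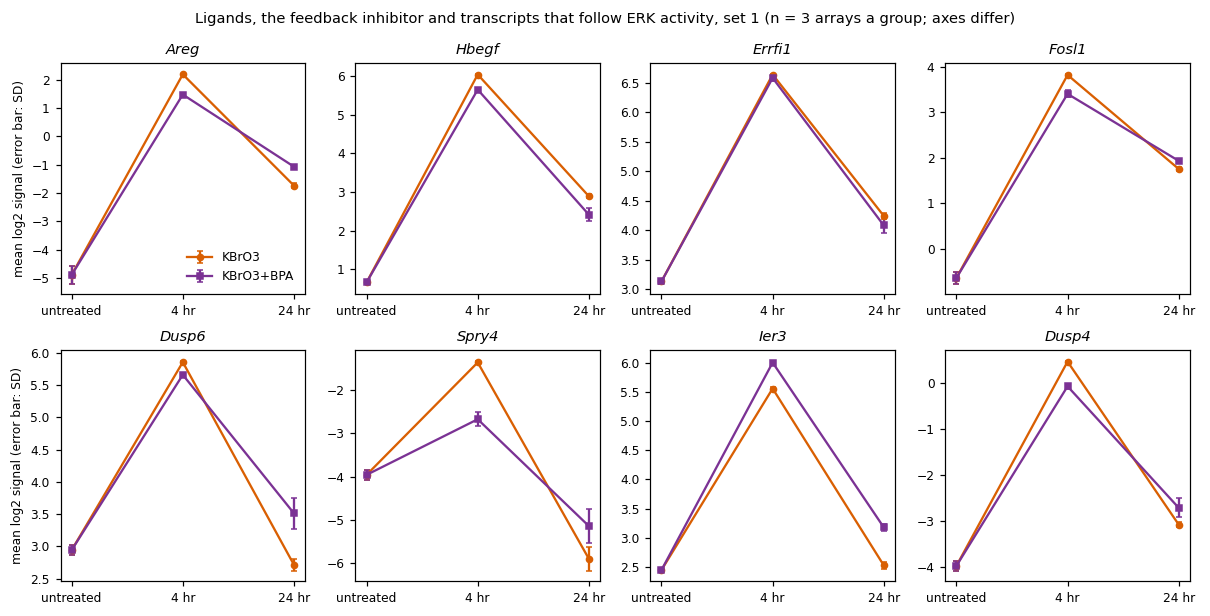
Mean log2 signal with SD, 3 arrays a group, in untreated cells and at 4 and 24 hr after KBrO3 alone or co-exposure, for Areg, Hbegf, Errfi1 and 5 genes of the ERK-response and feedback lists. The lines for Areg and Spry4 cross, with co-exposure lower at 4 hr and higher at 24 hr, whereas Errfi1 differs little between the treatments.

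The genes between the ligands and ERK are set against the same shares, 21.1% of all genes rising and 22.8% falling at 4 hr after KBrO3 alone. Among 9 sheddases, which release ligands from the cell surface, and iRhoms, 2 rose and 1 fell there. Adam19 rose by 2.83 ± 0.10 there and by 2.40 ± 0.10 after co-exposure. Adam8 was higher in co-exposed cells than after KBrO3 alone at 24 hr (1.06 ± 0.07, adjusted p = 3.3e-07). Among 12 adaptors and ubiquitin ligases, 3 rose and 1 fell at 4 hr after KBrO3 alone, where Gab1, a docking protein of the receptors, fell by 1.26 ± 0.05. Gab1 was lower still with BPA (-0.71 ± 0.05, adjusted p = 9.3e-07).

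Among 10 genes of the RAS to ERK chain, 3 rose and 3 fell at 4 hr after KBrO3 alone (21.1% and 22.8% over all genes), with Braf at -1.05 ± 0.06, and none passed between co-exposure and KBrO3 alone, where 10.6% of all genes were higher and 9.06% lower at 4 hr and 6.55% and 7.59% at 24 hr. Among 8 PI3K and AKT genes none rose and 2 fell at 4 hr after KBrO3 alone, with Pik3r2 at -1.08 ± 0.08. At 24 hr Pik3r1 fell by 1.22 ± 0.11 after KBrO3 alone.

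The genes whose pattern over the 15 arrays of the first set was most like each member's were described by Pearson's r over those arrays, which fall into 5 groups. For Areg they were Dusp2 (r = 0.994), Nsun2, Pak1ip1, Nolc1 and Nup50. For Hbegf they were Gatad2a (r = 0.998), Plaur, which encodes the urokinase receptor, Slc25a25, Elac2 and Nedd4l, and for Errfi1 they were Ppp2ca (r = 0.998), Eid3, Abt1, Snu13 and Eif3j1. For Egfr they were Manba (r = 0.996), Tgm2, Wnt16, Ak5 and Creb5. These lists depend on the scaling, since with array medians 0 of the 5 for Areg, 2 for Hbegf, 1 for Errfi1 and 3 for Egfr were kept.

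Of 12 fibroblast markers, 11 were well above background on all 24 arrays. Their summed signal lay between 1562 and 1660 times the 75th percentile in untreated cells of the first set, 1463 and 1556 at 4 hr and 688 and 779 at 24 hr after KBrO3 alone, and 1090 to 1132 and 467 to 551 after co-exposure. It was lowest at 24 hr. At 4 hr 1 of the 12 markers fell after KBrO3 alone (22.8% of all genes fell) and 5 after co-exposure (26.5%), and at 24 hr 9 and 10 fell (21% and 23.9%). The part of this in the EGF-system values was not tested. The summed signal of 8 leukocyte markers lay between 0.68 and 0.79 in untreated cells and between 1.21 and 1.33 at 4 hr after KBrO3 alone, and that of 7 skeletal muscle markers went from between 0.08 and 0.10 to between 0.20 and 0.21 at 4 hr after co-exposure. The part of these in the results was not tested. The markers Ptprc (leukocytes), Pecam1 (endothelium), Myh3 and Des (muscle) were not well above background on any of the 24 arrays. Of the other muscle markers, Myod1 was well above it on 19 arrays, Myog and Myh1 on 13 each, Ckm on 8 and Actn2 on 1. Single markers of these lists were above it, among them Cd68 and Lyz2 (leukocytes), Kdr and Tek (endothelium) on all 24 arrays. The summed signal of 8 epithelial markers ranged from 0.18 to 0.40 over the first set, and that of 5 endothelial markers from 0.09 to 0.24. The keratin genes Krt14 and Krt5 were well above background on all 15 arrays of the first set and Krt18 on 11, whereas Cdh1, the epithelial cadherin, was at background on these 15 arrays and above it on all 9 of the second set. Xrcc6, the gene for Ku70, gave signal between -0.60 and 0.57 in the first set, and since no Ku70-proficient cells were measured and the probe's place relative to the disrupted part is not given, this does not check the genotype. The share of spots well above background was 57.7 to 68.1% in the first set and 76.4 to 79.4% in the second.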

How the data were processed

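RNA from Ku70-/- MEFs was hybridized to 24 1-colour Agilent whole mouse genome arrays. The deposited scanner files hold intensity values that the authors extracted with Agilent Feature Extraction (9.5.3.1 in the first set and 12.0.0.7 in the second, per the file headers), background-subtracted and not normalized between arrays. The deposited series table held the same processed intensities, equal within rounding at 1080432 of 1080432 values compared, so the series-table alternative below used the same input. Here, control spots were left out, spots of a probe were averaged, and that log2 scale was used. A probe was tested if well above background on all arrays of at least 1 group of its set, and a gene was represented by its brightest probe. Each set was fitted in limma 3.58.1 (R 4.3.3) on all its groups, with Benjamini-Hochberg adjustment over all probes tested. SEs are from these fits. A dim group was set at the lowest signal well above background of any probe on its arrays.

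The members and gene lists were chosen with earlier results of these data known. Named genes were all members, every other EGF-family gene, from each further pathway list at most 3 genes per comparison with the largest differences that passed, against untreated cells or KBrO3 alone, and the 5 genes most like each of Areg, Hbegf, Errfi1 and Egfr. The methods were tested on simulated data with 100 probes changed at each of 2 sizes. For co-exposure against KBrO3 alone at 4 hr (27277 probes), 85 of 100 at log2 0.8 and 93 of 100 at log2 1.5 were called, and 2 of 27077 unchanged probes. For BPA alone at 24 against 4 hr (31672 probes), 1 and 24 of 100 were called. The simulated noise was independent between arrays and held no slide effect, whereas the slide correlation in the first set was 0.634. These counts therefore do not give the error rates of the real comparisons. Replicate numbers are not known to pair samples. Alternatives covered scaling, background correction, filters, thresholds, slide and replicate blocks, weights, other probes, the series table and leaving out each array. The number of arrays limits the precision. Promoters came from RefSeq (GRCm38.p6), matched by symbol for 6 of 10 genes. Values of some single pathway genes are not reported here.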

Additional observations from a re-analysis of the deposited data

Results flagged for a closer look

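The difference in Areg between co-exposed cells and KBrO3 alone changed direction between the times, from -0.71 at 4 hr to 0.67 at 24 hr, and the tested change of 1.38 (SE 0.16, limma, adjusted p = 3.1e-05) drew attention to it as an effect that differs between time points. The array holds 1 probe for Areg. The change passed in each of the 15 fits that left out 1 array, but missed the stricter Bonferroni limit (limma, Bonferroni-adjusted p = 0.057). It uses the arrays whose differences from untreated chose the genes, so its p-values are not independent of that choice. This change cannot be told apart from slide.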

How the results depend on the processing

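Counts below are of the 10 genes. Testing only probes above background on every array drops Areg, Btc and other dim genes by construction. It gave 3 genes apart from untreated at 24 hr after KBrO3 alone (6 as reported) and 3 after co-exposure (6), 5 at 4 hr after co-exposure (8), 5 for 24 against 4 hr after KBrO3 alone (8) and 5 after co-exposure (9), and 0 for co-exposure against KBrO3 alone at 4 hr (2), at 24 hr (3) and for the change between the times (1). The stricter thresholds (Bonferroni-adjusted p below 0.01 with a fold beyond 1.5 where tested, a 2-fold limit where described) gave 0 for these last 3, and 0 for BPA alone at 24 hr against untreated (2) and against 4 hr (2). Normexp background correction gave 1 for co-exposure against KBrO3 alone at 4 hr and 1 at 24 hr, and 4 for BPA alone at 24 against 4 hr. A random slide block gave 1 at 4 hr for co-exposure against KBrO3 alone. For BPA alone at 24 against 4 hr, array medians, no filter and quantile normalization each gave 1 and a fixed slide block gave 0. The causes were not tested. Leaving out each array in turn gave 9 to 9 genes after KBrO3 alone at 4 hr and 6 to 7 at 24 hr, 8 to 9 and 6 to 6 after co-exposure, 5 to 8 and 2 to 6 after BPA alone, 1 to 2 and 2 to 3 for co-exposure against KBrO3 alone, 1 to 1 for its change between the times, and 8 to 9, 9 to 9 and 0 to 3 for 24 against 4 hr after KBrO3 alone, co-exposure and BPA alone. The highest BPA counts, 8 at 4 hr and 6 at 24 hr, came without the first untreated array of the second set, and 4 came at 24 hr without the third 24-hr BPA array. The count of 0 for BPA at 24 against 4 hr came without the second or the third 4-hr BPA array. Without the first 4-hr KBrO3 array, Erbb3 did not pass at 4 hr.

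Of the differences past the limits, the sign turned for Btc at 24 hr after KBrO3 alone with normexp (-0.20), for Tgfa at 24 against 4 hr after co-exposure with quantile normalization (0.023), for Ereg at 24 against 4 hr on its other probe (0.69 after KBrO3 alone and 0.052 after co-exposure) and for Nrg1 at 4 hr after co-exposure on 1 of its other probes (-0.52). Signs also turned for differences not past the limits, among them Areg for BPA alone at 24 against 4 hr (-2.02 as reported, 0.67 with a fixed slide block). The median log2 difference over all genes for co-exposure at 24 against 4 hr was -0.16 as reported and 0.30 with array medians. In the normexp fit, spots more than 50 below their local background, at most 10 on an array, were left out, a choice made after seeing that it otherwise failed. Same-numbered samples correlated between -0.21 and 0.11 (first set) and between -0.38 and 0.65 (second set), and 1 of 15 and 2 of 9 arrays correlated best with their own number. The replicate block moved the count for BPA at 24 against 4 hr from 2 to 1, as Nrg1 (-1.25, limma adjusted p = 0.070) no longer passed, and changed no other tested call. Dim probes, with Btc not above background in 4 of 5 groups of the first set, limit what the fold changes can show.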
